A study of Rattus norvegicus with 4 samples.

Results

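The aminoacyl-tRNA synthetase genes were described in rat NR8383 cells from a list of 37 genes, chosen by symbol and not by any measured value. The list held 19 cytosolic synthetases, the scaffold proteins Aimp1 and Aimp2, and 16 mitochondrial synthetases. Probes were matched to genes through their transcript accessions, with older symbols counted too, and 34 of the 37 genes were measured, among 16581 named genes measured in all. Iars2, Lars2 and Mars2, the mitochondrial isoleucyl-, leucyl- and methionyl-tRNA synthetases, had no named probe and were not analysed here.

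Aminoacyl-tRNA synthetases join each amino acid to its transfer RNA and so set the substrates of translation. Mammalian cells use separate sets for cytosolic and mitochondrial translation, both encoded in the nucleus, and a few genes, such as Gars1 and Kars1, make both forms. Several cytosolic synthetases are held in a multisynthetase complex by the scaffold proteins Aimp1 and Aimp2. In mammals many cytosolic synthetase genes are targets of ATF4, the transcription factor of the amino acid response, which acts when an amino acid is short or when stress kinases slow translation.

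NR8383 is an alveolar macrophage line established from lung lavage of a normal rat. The 4 samples were biological replicates, cultures after 20 passages, each incubated for 4 h with COOH-functionalized carbon nanotubes (NRCWE042) at 6.8 cm2 of nanotube surface per cm2 of culture, and total RNA of each was read on its own 1-colour Agilent array. They form 1 group, and the unexposed cells that the study also planned were not analysed here. No value below is therefore an effect of the nanotubes: the values describe the synthetase transcripts of exposed cells and their spread over 4 cultures.

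A level is the log2 of the processed signal relative to the 75th percentile of the probes on the same array, so a level above 0 lies among the brighter probes of its array. Probes differ in affinity, and levels of different genes have no order. That percentile was 128, 131, 98.5 and 49.0 signal units on replicates 1 to 4, and 38.8%, 36.8%, 35.2% and 31.1% of the probes were well above background, the software's mark of a spot above its local background. Replicate 4 was thus the dimmest array. On replicate 3 an area of low signal near the centre of the array covered 3.63% of the sample spots. Of 14 measured macrophage markers, 12 were detected, with Tyrobp, Lyz2 and Ctsd averaging 9.57, 9.82 and 9.22, while Marco and Adgre1 were well above background on 0 arrays. Of 12 measured markers of other lung cells, 1 was detected, the endothelial gene Cdh5, at -1.01 on average from a probe in that area.

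Every cytosolic synthetase was detected in the exposed cells, and the mitochondrial set only in part. Detection required a probe well above background on each of the 4 arrays. That held for 29 of the 34 measured synthetase genes (85.3%), against 44.4% of all measured genes. The 29 were all 19 cytosolic synthetases, both scaffold genes and 8 of 13 measured mitochondrial synthetases (61.5%). Cultures are compared here through their RNA pools, in which fewer cells with a transcript and less transcript per cell cannot be told apart.

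**Figure D1:**
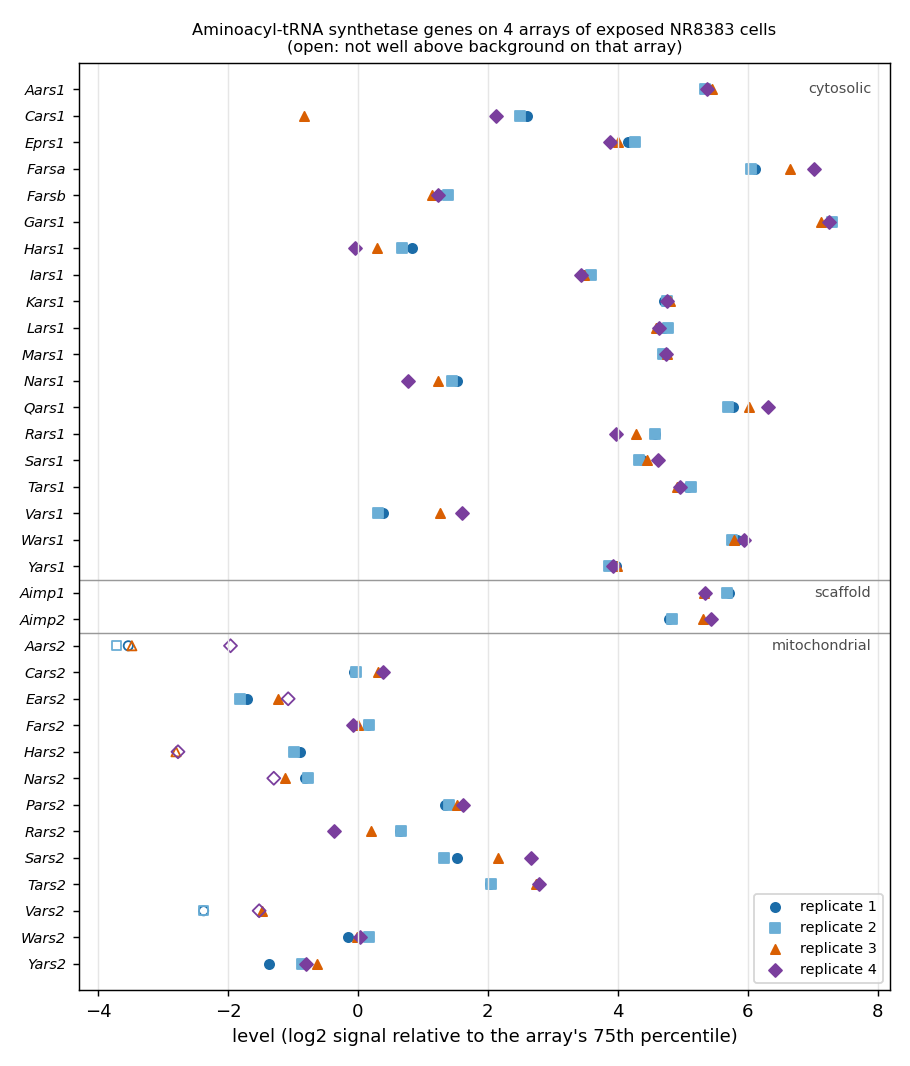
Level of each measured synthetase gene on each array (log2 signal relative to the 75th percentile of the array), with 1 marker per replicate and open markers where the probe was not well above background. All 19 cytosolic genes and both scaffold genes have filled markers throughout, and 5 mitochondrial genes have open ones; the low marker of Cars1 at -0.83 is replicate 3.

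Among cytosolic synthetases outside the complex, the glycyl-, alanyl- and tryptophanyl-tRNA synthetases were read almost alike in the 4 cultures. Gars1, whose protein charges glycine transfer RNA in cytosol and mitochondria, had levels of 7.28, 7.30, 7.13 and 7.25 on replicates 1 to 4. Aars1, the alanine enzyme, had 5.38, 5.34, 5.45 and 5.37. Wars1, the tryptophan enzyme and an interferon-inducible gene in human cells, had 5.83, 5.75, 5.79 and 5.94. The lowest and highest arrays differed by 1.13-fold for Gars1, 1.07-fold for Aars1 and 1.14-fold for Wars1, and no array stood apart for all of them. This depended on the processing. After another background correction (normexp) replicate 4 was lowest for Gars1, Aars1 and Wars1, at -0.40, -0.29 and -0.31 relative to each gene's own mean. With scaling on the spike-in controls it was also lowest, at -0.84, -0.86 and -0.74. Yars1, the tyrosine enzyme, had 3.97, 3.86, 3.99 and 3.92. Sars1, the serine enzyme, had 4.38, 4.33, 4.45 and 4.62, and was highest on replicate 4. Tars1, the threonine enzyme, had 5.09, 5.13, 4.91 and 4.96, a range of 1.17-fold.

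Other cytosolic genes outside the complex differed more between cultures, and not in 1 direction. Vars1, which charges valine transfer RNA, had levels of 0.39 and 0.31 on replicates 1 and 2 and of 1.27 and 1.60 on replicates 3 and 4, a range of 2.44-fold. Hars1, the histidine enzyme, had 0.83, 0.68, 0.29 and -0.042, with its lowest value on the array where Vars1 was highest. Nars1, the asparagine enzyme, had 1.52, 1.45, 1.23 and 0.77. For Hars1 a dimmer probe of the same transcript read 0.28, 0.48, 0.061 and 0.17, so its lowest array was replicate 3 and its SD was 0.18, against 0.39 for the brighter probe. Both probes read lower on replicate 4 than on replicates 1 and 2, but only for the brighter one was it the lowest array. The pattern of Vars1 depended on the processing. With scaling on the spike-in controls, Vars1 minus its own mean was -0.051, -0.011, 0.21 and -0.15 on replicates 1 to 4. Hars1 and Nars1 were lowest on replicate 4 under that scaling too, at -1.33 and -1.32. After normexp, Vars1 minus its own mean was -0.28, -0.25, 0.23 and 0.30.

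Phenylalanyl-tRNA synthetase is built from the subunits Farsa and Farsb, and their messenger RNAs varied unequally. Farsa had levels of 6.11, 6.06, 6.66 and 7.02 on replicates 1 to 4. Farsb had 1.25, 1.38, 1.14 and 1.23, so Farsa was highest on replicate 4 and Farsb on replicate 2. The difference Farsa minus Farsb was 4.85, 4.68, 5.51 and 5.79 log2 units, a range of 2.16-fold between arrays. A difference within an array is untouched by the choice of 75th percentile, and its range was 1.81-fold after another background correction (normexp) and 1.83-fold after quantile normalization. Both spots of Farsa gave like values: they read 7.01 and 7.04 on replicate 4 and 6.02 and 6.10 on replicate 2.

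The 9 listed components of the multisynthetase complex (Eprs1, Iars1, Kars1, Lars1, Mars1, Qars1, Rars1, Aimp1 and Aimp2) were all detected. Mars1, the methionine enzyme, which serves both initiation and elongation, had levels of 4.74, 4.70, 4.76 and 4.74 on replicates 1 to 4. Its SD was 0.022, and 0.20 after normexp. Kars1, the lysine enzyme of cytosol and mitochondria, had 4.71, 4.76, 4.80 and 4.76. Iars1, the isoleucine enzyme, had 3.49, 3.59, 3.47 and 3.43, and Lars1, the leucine enzyme and a leucine sensor of the mTORC1 pathway in human cells, had 4.71, 4.77, 4.58 and 4.64. The arrays of these 4 genes lay within 1.14-fold. After normexp Kars1, Iars1 and Lars1 had SDs of 0.33, 0.24 and 0.32, and each was lowest on replicate 4. Eprs1, which carries the glutamate and proline enzymes in 1 protein, had 4.16, 4.27, 4.01 and 3.89, a range of 1.31-fold.

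In the levels as defined here, Qars1 and Rars1, and likewise Aimp2 and Aimp1, differed between arrays in opposite directions. Qars1, the glutamine enzyme, had levels of 5.77, 5.70, 6.03 and 6.32 on replicates 1 to 4. Rars1, the arginine enzyme, had 4.58, 4.58, 4.28 and 3.97. Qars1 was thus highest, and Rars1 lowest, on replicate 4, and Qars1 minus Rars1 was 1.20, 1.12, 1.75 and 2.35 log2 units. The scaffold genes split in the same manner. Aimp2 had 4.78, 4.84, 5.31 and 5.44, and Aimp1, which is also the source of the secreted peptide EMAP II, had 5.71, 5.68, 5.33 and 5.34. Aimp2 minus Aimp1 was -0.93, -0.85, -0.022 and 0.10 log2 units, a range of 2.04-fold, which was 1.91-fold after normexp and 2.05-fold after quantile normalization. The range of Qars1 minus Rars1 was 2.35-fold, against 2.25-fold and 2.28-fold under those settings. The opposite directions depended on the processing. After normexp, Qars1 minus its own mean was 0.072, 0.045, -0.010 and -0.11 on replicates 1 to 4. Aimp2 minus its own mean was -0.051, 0.089, 0.069 and -0.11. Qars1, Rars1, Aimp2 and Aimp1 were then all lowest on replicate 4, as they were with scaling on the spike-in controls. With 4 arrays of 1 group the differences between arrays were not tested.

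Eef1e1, a further scaffold protein of the complex, was not among the 37 genes and is added here after its values were seen. It had levels of 3.44, 3.65, 3.11 and 2.85 on replicates 1 to 4, and was lowest on replicate 4, as Rars1 and Eprs1 were.

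**Figure D2:**
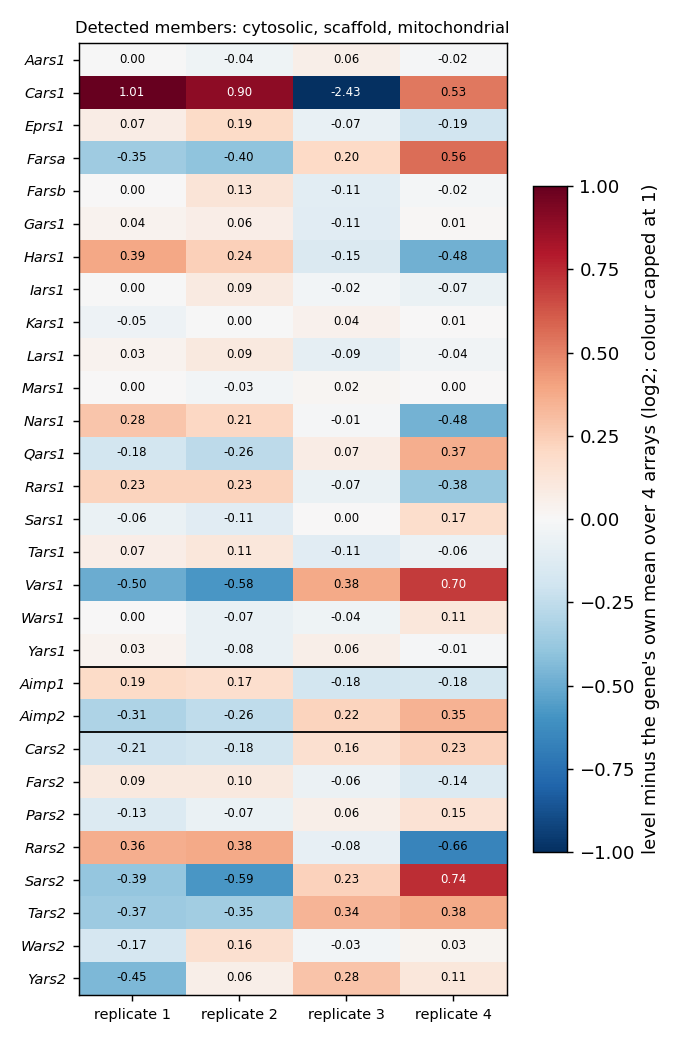
Level of each detected member on each array minus the mean of that gene over the 4 arrays (log2 units, printed in each cell), with cytosolic genes above scaffold genes and mitochondrial genes at the bottom. Rows such as Mars1 and Kars1 are nearly white, while Vars1, Sars2, Farsa and Aimp2 are high and Rars1, Rars2, Hars1 and Nars1 low on replicate 4.

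Probes spotted 10 times on each array gave the scatter between spots of the same array for 4 cytosolic genes. That scatter does not measure the error between arrays. The SD over spots within an array was 0.048 to 0.064 for Gars1 and 0.046 to 0.068 for Lars1, against SDs over the array means of 0.079 and 0.081. For Qars1 the spots within an array had an SD of 0.089 on replicate 1, 0.091 on replicate 2, 0.20 on replicate 3 and 0.10 on replicate 4, and the SD over the arrays was 0.28. The spots of Qars1 on replicate 4, from 6.11 to 6.45, did not overlap those on replicates 1 and 2, from 5.53 to 5.89. This depended on the processing. After normexp and with scaling on the spike-in controls Qars1 was instead lowest on replicate 4, at -0.11 and -0.48 relative to its own mean. For Tars1 the spots had an SD of 0.13 on both replicates 3 and 4, against 0.049 and 0.064 on replicates 1 and 2. Its highest spots read 5.21 and 5.27 on replicates 3 and 4, beside means of 4.91 and 4.96. Gars1, Lars1 and Wars1 each had a dimmer probe too, detected on all arrays. That of Gars1 read 2.43, 2.33, 2.31 and 2.14 on replicates 1 to 4, and that of Lars1 2.11, 2.17, 2.05 and 1.84, both lowest on replicate 4, where the brighter probes were not. The dimmer probe of Wars1 read 1.59, 1.59, 1.47 and 1.67, highest on replicate 4 as the brighter one was.

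**Figure D3:**
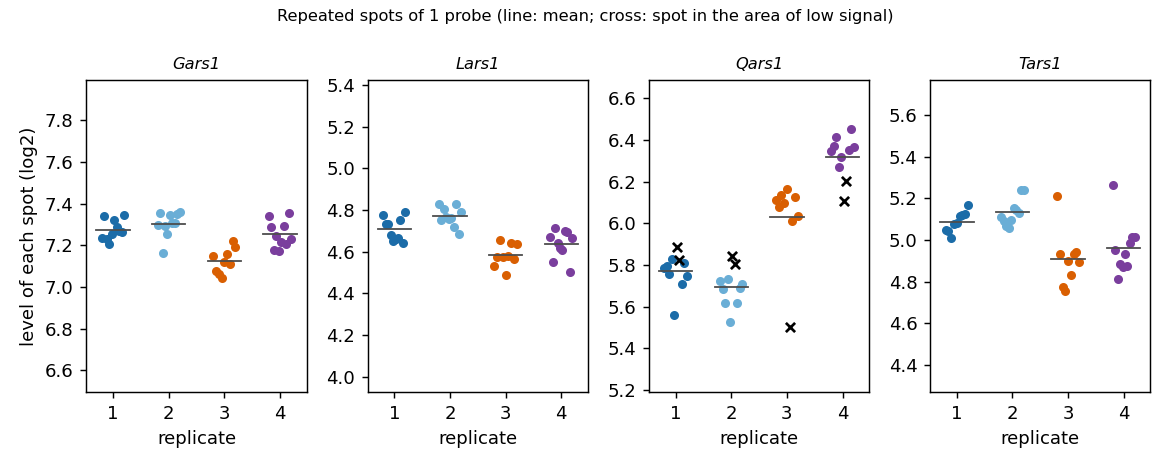
Level of every spot of the 4 synthetase probes spotted 10 times per array (log2), by replicate, with a line at the mean and crosses for spots in the area of low signal; each panel spans the same number of log2 units. Qars1 lies between 6.11 and 6.45 on replicate 4, apart from its values on replicates 1 and 2, and its cross on replicate 3 at 5.50 lies under the other spots. After normexp and with spike-in scaling, not shown here, Qars1 is instead lowest on replicate 4.

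Cars1, which charges cysteine transfer RNA, had levels of 2.60, 2.49, -0.83 and 2.12 on replicates 1 to 4 and the highest SD of the detected members, 1.63. Its 1 spot lay inside the low-signal area of replicate 3, where the 25 sample spots of its block of the array had a median of -3.05 log2 units relative to the other arrays. Cars1 itself differed by -3.33 log2 units on that scale. The same block belonged to a smaller low area of 7 blocks on replicate 4. Without replicate 3, Cars1 averaged 2.40 ± 0.25 (SD, n = 3).

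The area comprised 24 blocks of 12 spot rows by 8 spot columns and held the probes of 198 detected genes. Qars1 had 2 of its 10 spots there. On replicate 3 the software had marked 1 of them as an outlier, and the other read 5.50, against 6.01 to 6.17 for the 8 spots outside. The mean of those 8 spots was 6.09, against 6.03 for all spots used. No other detected member had a spot in the area.

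**Figure D4:**
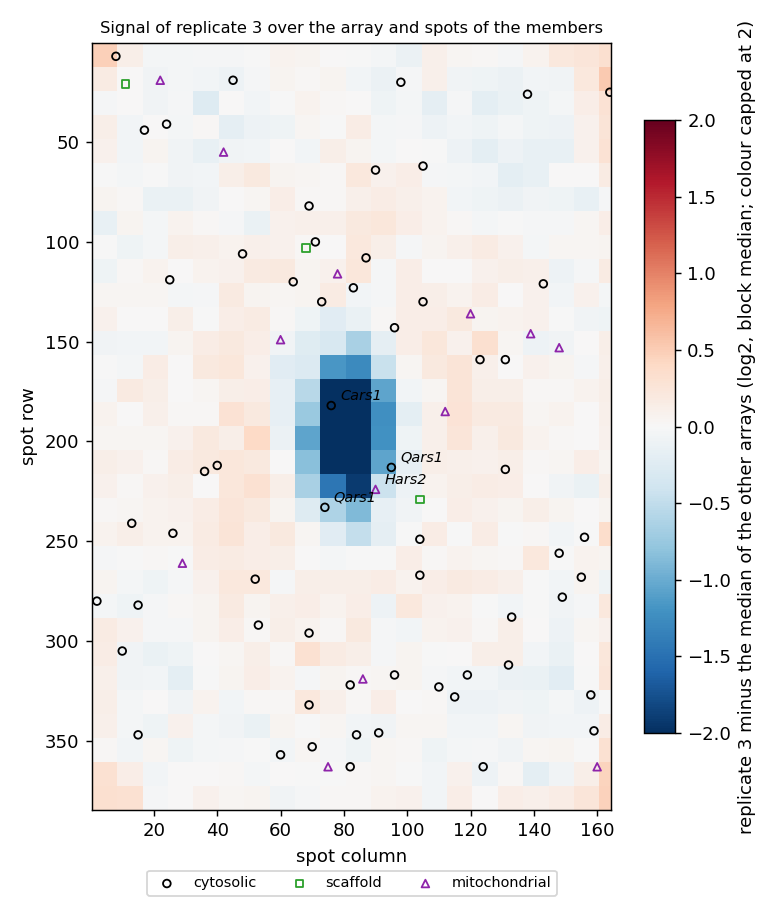
Block medians of the signal on replicate 3 minus the median of the other arrays (log2 units, colour capped at 2), over the 384 spot rows and 164 spot columns, with the spots of the members marked by group. The spot of Cars1 lies in the dark centre, 2 spots of Qars1 lie in paler blocks at its edge, and Hars2 lies just outside.

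The mitochondrial synthetases divided into genes read on all arrays and genes near the limit of detection. Tars2, the threonine enzyme, had levels of 2.04, 2.06, 2.75 and 2.78 on replicates 1 to 4. Sars2, the serine enzyme, had 1.53, 1.33, 2.15 and 2.66, a range of 2.51-fold. Both were higher on replicates 3 and 4 than on replicates 1 and 2. With scaling on the spike-in controls both were instead lowest on replicate 4, and the SD of Sars2 was 0.080. Rars2, the arginine enzyme, had levels of 0.65, 0.67, 0.21 and -0.37 and was lowest on replicate 4. Pars2, the proline enzyme, had 1.34, 1.40, 1.53 and 1.62. Cars2, the cysteine enzyme, had -0.060, -0.031, 0.31 and 0.38. The lowest and highest arrays differed by 1.21-fold for Pars2 and 1.36-fold for Cars2. Fars2, whose product charges phenylalanine in mitochondria as a monomer, had 0.16, 0.17, 0.0069 and -0.072. Wars2, the tryptophan enzyme, had -0.16, 0.17, -0.016 and 0.039. Yars2, the tyrosine enzyme, had -1.37, -0.86, -0.63 and -0.80, and was lowest on replicate 1.

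The other 5 measured mitochondrial synthetases were not detected on every array. Nars2, the asparagine enzyme, had levels of -0.81, -0.77 and -1.12 on replicates 1 to 3 and was not well above background on replicate 4. Ears2, the glutamate enzyme, had -1.71, -1.82 and -1.22 on the same arrays and was likewise not well above background on replicate 4. Both were read on the 3 brighter arrays. Vars2, the valine enzyme, was well above background on replicate 3 alone, at -1.48. Aars2, the alanine enzyme, was well above background on 0 arrays. For Ears2, Fars2 and Pars2 a dimmer probe existed that was well above background on 0 arrays, so their values rest on 1 probe each.

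Hars2, the mitochondrial histidine enzyme, had levels of -0.89, -0.98, -2.80 and -2.77 on replicates 1 to 4. It was not well above background on replicates 3 and 4. Its spot lay at the rim of the area of low signal, in a block with a median of -0.43 log2 units on replicate 3, outside the area as defined (a block median under -0.5) and inside a wider one (under -0.3). On replicate 4, where its level was about as low, the spot lay outside the smaller low area of that array. Whether its position bears on replicate 3 was not tested.

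Some amino acids have a cytosolic and a mitochondrial enzyme detected on the same arrays, and their difference is free of the scaling of the array. Sars1 minus Sars2 was 2.85, 3.00, 2.30 and 1.96 log2 units on replicates 1 to 4, and Tars1 minus Tars2 was 3.05, 3.08, 2.16 and 2.18. Both differences were smaller on replicates 3 and 4, where the level of the mitochondrial gene, as defined here, was higher. Their ranges were 2.06-fold and 1.88-fold. Rars1 minus Rars2 was 3.93, 3.91, 4.07 and 4.34, a range of 1.35-fold, with both genes lowest on replicate 4. After normexp it was 3.37 to 3.52 on replicates 1 to 3 and 2.95 on replicate 4, smallest instead of largest there. Wars1 minus Wars2 ranged over 1.32-fold and Yars1 minus Yars2 over 1.64-fold. A difference of levels compares different probes, so its size has no meaning of its own and its change between arrays does.

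Over the lists, 4 of the 29 detected members (13.8%) deviated on some array, that is, differed by more than 1 log2 unit from the other 3 arrays' median, against 8.90% of the 7367 detected genes. These were Cars1 on replicate 3, Vars1 at 1.20 and Sars2 at 1.13 on replicate 4, and Rars2 at -1.02 on replicate 4. Without the area of low signal the count was 3, since Cars1 dropped out, against 7.57% of all detected genes. Without replicate 4 it was 1, Cars1, against 2.77% of all detected genes, and without replicate 2 it was 2, Cars1 and Vars1, against 4.67%. The count was 2, Cars1 and Rars1, after normexp, against 6.11%.

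The median SD over the 4 arrays was 0.17 log2 units for the 29 detected members, against 0.25 for all detected genes. It was 0.11 for the 19 cytosolic genes, 0.27 for the 8 mitochondrial genes and 0.17 for the 9 components of the complex. The order of the cytosolic and mitochondrial genes turned round after normexp, with 0.28 and 0.18, and with spike-in scaling, with 0.69 and 0.55. An SD under 0.1 was found for 9 of 29 members (31.0%), all of them cytosolic, against 13.2% of all detected genes. After normexp it was found for 3 members, of which 1 was a cytosolic synthetase. The share of all detected genes was not counted under that setting. SDs were not adjusted for level. The order of members and all genes depended on the background correction, with 0.27 for the members and 0.23 for all detected genes after normexp.

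**Figure D5:**
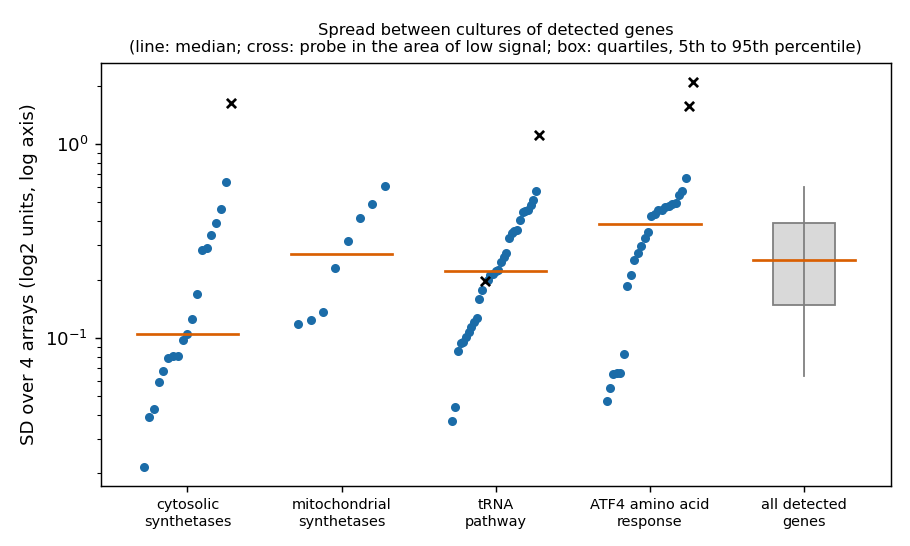
SD over the 4 arrays of each detected gene (log2 units, logarithmic axis) for cytosolic and mitochondrial synthetases, the tRNA pathway and the ATF4 amino acid response, with a box for all detected genes. Cytosolic synthetases have a median of 0.11 and mitochondrial synthetases of 0.27, an order that turns round after normexp (0.28 and 0.18) and with spike-in scaling (0.69 and 0.55); the crosses at 1.63 and above are Cars1 and Cebpg, in the area of low signal.

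Group medians of the cytosolic and mitochondrial genes are given as shifts from each gene's own mean. The median of level minus own mean over the cytosolic genes was 0.0041, 0.064, -0.024 and -0.014 log2 units on replicates 1 to 4. Over the mitochondrial genes it was -0.19, -0.0062, 0.11 and 0.13, and over all detected genes -0.068, -0.066, 0.057 and 0.099. The cytosolic median minus the mitochondrial one was 0.19, 0.070, -0.13 and -0.14. Values relative to a gene's own mean cancel over the arrays, so differences of both signs follow largely from the definition. The size of these differences was not tested. Members above their own mean numbered 15, 15, 14 and 16 of 29 (51.7%, 51.7%, 48.3% and 55.2%). Over all detected genes the share was 38.7%, 41.9%, 61.9% and 59.6%. With scaling on the spike-in controls the median shift of all detected genes was 0.38, 0.51, -0.11 and -0.75, and that of the cytosolic genes 0.45, 0.63, -0.19 and -0.86.

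Promoters were searched for shared elements, because ATF4 in mammals binds composite sites with a C/EBP partner at amino acid response genes. RefSeq windows of 250 bases before to 50 after the gene start (GRCr8) were held for 35 of the 37 genes. The composite element TGATGNAA (N any base, both strands) occurred in 7 of the 35 (20.0%), all of them cytosolic, namely 7 of 17 cytosolic, 0 of 2 scaffold and 0 of 16 mitochondrial promoters. It occurred in 4.16% of the promoters of all 27457 genes and in 2.21% of those of 6189 detected genes. All 7 held TGATGCAA, which 0.827% of all promoters and 0.662% of those of detected genes held. For 6 of them the match is shown with 11 flanking bases on either side, fewer at the end of a window, on the strand that reads TGATGCAA, which is in capitals:
Cars1: tttccagaatcTGATGCAAccgcggcgccg
Iars1: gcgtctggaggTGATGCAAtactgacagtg
Mars1: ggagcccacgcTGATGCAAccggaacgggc
Nars1: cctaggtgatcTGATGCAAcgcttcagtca
Tars1: agctaaccagcTGATGCAAcgggacgccag
Yars1: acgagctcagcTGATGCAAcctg
On GRCr8 these stretches are chr1:208225334-208225363 (plus strand) for Cars1, chr17:15193658-15193687 (plus) for Iars1 and chr7:65023752-65023781 (plus) for Mars1. Those of Nars1, Tars1 and Yars1 are chr18:60275778-60275807 (minus), chr2:62114811-62114840 (plus) and chr5:146820190-146820212 (plus).

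In the promoters shown, the most upstream base of the element lay 24 bases before the start in Iars1, 17 in Mars1, 14 in Nars1 and 27 in Tars1. In Cars1 and Yars1 it was base 18 and base 39 of the gene. The element read along the gene in Nars1 and Yars1 and on the opposite strand in Cars1, Iars1, Mars1 and Tars1. These letters are a description of the window and not a measured binding site. The 6 detected genes with the element outside the area of low signal had a median SD of 0.063, and the 10 cytosolic genes without it had 0.15. After normexp these medians were 0.26 and 0.28, and with spike-in scaling 0.68 and 0.61. Their median shifts were 0.019, 0.032, 0.0046 and -0.039 with the element, against -0.025, -0.037, -0.018 and 0.059 without it, on replicates 1 to 4.

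The E box and the ETS core were found in both sets. The E box CACGTG occurred in 6 of the 35 promoters (17.1%), against 10.3% in detected genes, and 5 of the 6 were cytosolic. The ETS core CCGGAAG occurred in 17 of 35 (48.6%), against 21.6% in detected genes, and those 17 were 9 cytosolic, 2 scaffold and 6 mitochondrial genes. The cyclic AMP element TGACGTCA occurred in 0 of 35, against 3.55%. The NRF1 palindrome occurred in Wars2 alone, against 2.13% in detected genes. All elements were searched on both strands, after the levels were known. TGATGCAA is a case of TGATGNAA, and none of the other elements is contained in it.

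Genes of the same pathways were read from lists of related genes. Of 36 measured genes of the tRNA pathway (tRNA processing, transfer, editing and transcription), 33 were detected, with a median SD of 0.22. Pstk, Elac1 and Rpp30 were each well above background on 3 arrays. The largest SDs were those of Tsen15 at 1.11, whose probe lies in the area of low signal, Gtf3c1 at 0.57 and Tsen54 at 0.51. The composite element was in 0 of 32 promoters of this list.

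Of 29 measured genes of the ATF4 amino acid response, 26 were detected, with a median SD of 0.39. Gpt2 and Eif2ak4, the kinase that senses uncharged transfer RNA, were well above background on 3 arrays each, and Vldlr on none. The largest SDs were those of Cebpg at 2.08 and Ddit3 at 1.57, both with probes in the area of low signal, and of Cebpb at 0.67. On replicates 1 to 4 Cebpb had levels of 7.11, 7.31, 8.17 and 8.51. The median shift of this list was -0.23, -0.17, 0.067 and 0.30, beside -0.024 to 0.064 for the cytosolic synthetases. The difference between the lists was not tested. The composite element was in 5 of 27 promoters of this list. All 68 measured mitochondrial ribosomal protein genes were detected, with a median SD of 0.19, and 55 of 59 translation factor genes, with 0.21.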

How the data were processed

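The authors deposited linear intensities per spot. Agilent Feature Extraction 11.0.1.1 (also in the submitters' processing notes) made them from 1-colour scans, and per the file headers they were background-subtracted and detrended within each array and not normalized between arrays. The 4 arrays shared 1 slide and 1 scan. Levels are log2 values computed from these deposited intensities: spots flagged non-uniform or as population outliers were dropped, each probe took the mean of its spots, and 0 was set at the 75th percentile over the array's 45598 sample probes. No sample spot was saturated (0 on each array). Probes were named by accession in RefSeq's GRCr8 gene table (21109 matched, 24489 unnamed). No coordinate was taken from the files, whose headers carry an older build. A gene took its brightest probe; well above background needed over 50% of its spots.

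The area of low signal was the largest connected set of blocks whose median fell under -0.5 log2 relative to the other arrays. Block medians used unflagged sample spots well above background on the other arrays, with each array centred on the median of those spots. No comparison was tested, since with 4 arrays of 1 group a sign-flip test cannot go below 0.125; Dixon's test for a sample apart from the others was used alone. The number of arrays limits the precision. Alternatives were normexp (offset 50), other scalings, probe rules, detection rules, the area left out and each replicate left out. The spot mean is not among the columns used here, so normexp used the spot median. The 75th percentile over spots, and low areas on both replicates 3 and 4, were chosen after seeing the data.

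The members and lists were chosen with earlier results of these data known. Every measured member was named; of the tRNA pathway and ATF4 lists, the genes not detected and the 3 with the largest SD; Eef1e1 and the marker genes were named beyond that rule, after their values were seen. Python 3.11.15 with numpy 2.4.6, pandas 2.3.3 and matplotlib 3.10.9, and R 4.3.3 with limma 3.58.1, were used. The promoter stretch of 1 gene is not reported here. The steps were tested on simulated data.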

Additional observations from a re-analysis of the deposited data

Results flagged for a closer look

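The level of Cars1 on replicate 3, -0.83, was set apart from the other arrays by Dixon's test at the 95% level (ratio of gap to range 0.86). The probe of Cars1 sits inside that array's low-signal area. It was the 1 such value among 32 results examined. Chance sets apart about 1 in 20 groups, and 3.18% of all detected genes had such a value.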

How the results depend on the processing

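No paired analysis was possible because only 1 group was analysed. The count of detected members was 27 to 34 over all alternatives, 27 when detection was asked of all probes (38.6% of all genes) and 34 when a positive and significant signal sufficed (55.7% of all genes). The median SD of detected members, 0.17, was 0.27 after normexp and 0.64 with scaling on the spike-in controls, where all detected genes had 0.59; leaving out 1 replicate gave 0.14 to 0.20. The 4 deviating members became 2 after normexp, where 6.11% of all detected genes deviated, and 21 with spike-in scaling, where 57.9% did. When 1 replicate was left out they became 1 to 3, against 2.77% to 9.32% of all detected genes. The cytosolic minus mitochondrial shift kept its sign on each replicate under every alternative that could change it. Spike-in scaling and the 75th percentile over detected probes or over spots move all genes of an array alike, so they cannot change it. On replicate 4 the shift was -0.35 after normexp, against -0.14. Leaving out 1 replicate gave 0.14 to 0.24, 0.0093 to 0.18, -0.22 to -0.051 and -0.21 to -0.048 on replicates 1 to 4. The cause of these changes was not tested. The 75th percentile over detected probes and over spots changed the zero of each array, which moved all 29 mean levels; normexp moved 21 of them by more than the SD over arrays and averaging all probes moved 3. Leaving out the low areas of replicates 3 and 4 together was an alternative chosen after seeing the data. It left 3 deviating members, against 7.22% of all detected genes, and a median SD of 0.14, against 0.24. On replicate 4, the dimmest array, fewer mitochondrial genes were well above background. Nars2 and Ears2 had levels of -1.29 and -1.07 there without being well above background.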
